A study of Homo sapiens with 8 samples.

Results

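The 10 genes described here encode small leucine-rich proteoglycans: PRELP, DCN, LUM, BGN, FMOD, OGN, ASPN, OMD, PODN and ECM2. They were chosen by gene symbol from a list of the family, out of 23248 symbols, and each symbol had 1 row in every sample. All 10 passed the expression filter, a mean of at least 1 FPKM (fragments relative to transcript length and to all mapped fragments) and a successful estimate in every sample, as did 11442 genes in all. PRELP was singled out because its rise in these data was already known, so its own increase is given here as a description, and the question is how the rest of the family compares with it. The study transfected 2 human fibroblast lines, here line 1 and line 2, both labelled as population controls, with small interfering RNA (siRNA), either targeting SUPT4H1 or non-targeting. SUPT4H1 encodes the smaller subunit of DSIF, an elongation factor of RNA polymerase II. Each line gave 2 replicate treatments of each siRNA, 8 samples in all, and polyadenylated RNA was sequenced. All cells, controls included, went through lipid transfection and grew in serum-containing medium. The sources used here do not give the hours after transfection, the siRNA sequence, or whether the siRNA was 1 sequence or a pool, and each line is a single source of cells. The labels do not say that the replicates were separate cultures, so p-values reflect the spread among these samples alone, and that spread may be technical.

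Small leucine-rich proteoglycans are secreted proteins whose core is a curved stack of leucine-rich repeats. Many carry chondroitin, dermatan or keratan sulfate chains, and many bind collagen fibrils and set their spacing and diameter. Several also hold growth factors such as TGF-beta in the matrix, and connective tissue fibroblasts are among their main makers. Class I holds DCN (decorin), BGN (biglycan) and ASPN (asporin), with ECM2 as a related protein. Class II holds LUM (lumican), FMOD (fibromodulin), PRELP (prolargin) and OMD (osteomodulin), class III holds OGN (osteoglycin), and PODN (podocan) belongs to class V.

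The 250 bases before the annotated start are shown for the 2 members that were higher after SUPT4H1 siRNA in both lines, PRELP and PODN, and for the 2 that were lower in both, BGN and ASPN, so that the promoters of members that moved together can be read side by side. They come from RefSeq on GRCh38.p14, are written 5′ to 3′ on the strand of the gene, and lie at chr1:203475556-203475805 (+) for PRELP, chr1:53061963-53062212 (+) for PODN, chrX:153494730-153494979 (+) for BGN and chr9:92482507-92482756 (-) for ASPN. Capitals mark exact matches, on either strand, to 3 promoter motifs, searched separately so that matches may overlap. The letters searched were TATAAA for the TATA box, the sequence CCAAT for the box of that name, and GGGCGG for the GC box.
PRELP: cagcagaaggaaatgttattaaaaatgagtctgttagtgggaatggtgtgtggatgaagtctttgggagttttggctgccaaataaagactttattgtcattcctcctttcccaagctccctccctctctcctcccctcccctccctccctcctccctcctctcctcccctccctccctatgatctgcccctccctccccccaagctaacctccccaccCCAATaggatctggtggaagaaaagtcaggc
PODN: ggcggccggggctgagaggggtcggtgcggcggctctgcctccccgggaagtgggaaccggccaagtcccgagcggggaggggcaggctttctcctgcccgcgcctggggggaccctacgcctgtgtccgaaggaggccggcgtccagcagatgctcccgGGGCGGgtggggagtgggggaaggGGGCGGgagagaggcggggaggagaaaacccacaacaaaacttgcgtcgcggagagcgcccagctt
BGN: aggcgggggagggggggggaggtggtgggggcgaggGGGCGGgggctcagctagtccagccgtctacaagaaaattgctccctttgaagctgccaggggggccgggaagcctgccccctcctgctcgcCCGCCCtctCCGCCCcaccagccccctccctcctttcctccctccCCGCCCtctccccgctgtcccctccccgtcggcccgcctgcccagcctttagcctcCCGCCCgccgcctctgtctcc
ASPN: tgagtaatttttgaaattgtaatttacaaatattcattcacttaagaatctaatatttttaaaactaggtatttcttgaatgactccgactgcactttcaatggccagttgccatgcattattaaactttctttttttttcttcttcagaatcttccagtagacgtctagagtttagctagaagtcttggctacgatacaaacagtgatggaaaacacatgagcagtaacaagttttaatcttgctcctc

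Entries were found for 7 of the 10 members, all but DCN, LUM and OMD. The PRELP sequence held 1 CCAAT match, 0 CpG and 52.8% G or C, whereas PODN held 2 GC boxes, 23 CpG and 72.4% G or C. BGN held 5 GC boxes, 16 CpG and 74% G or C, and ASPN held none of the 3 motifs, 3 CpG and 32.4% G or C. Neither the pair that was higher nor the pair that was lower therefore shared its base composition. In windows of the same length over all 35116 RefSeq promoters, 10.7% held the TATA box, 32% the CCAAT box and 42.6% the GC box, and the median was 58% G or C and 11 CpG. A match is a description of the letters only.

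The targeted gene followed its labels. SUPT4H1 was at 25.6 to 28.3 FPKM in the control samples and at 1.37 to 1.74 FPKM in the SUPT4H1 siRNA samples. That was 5.5% of the control mean in line 1 and 6.3% in line 2. On the log2(FPKM + 1) scale, which understates changes at low levels, the change was -3.42 (limma, adjusted p = 3.97e-11). FPKM summed to between 288293 and 305680 per sample. The number of fragments is not given. Relative depth was inferred from rows whose deposited FPKM intervals imply 1 to 3 fragments. Set to 1 in one control library of line 1, the inferred depth ranged from 0.82 to 1.127. All 8 fibroblast markers on a fixed list reached 1 FPKM in every sample, with a summed level of 6861 to 9728 FPKM in control and 6578 to 8981 FPKM in SUPT4H1 siRNA samples. All 4 epithelial, 4 endothelial, 4 adipocyte and 4 melanocyte or Schwann cell markers were below 1 FPKM in every sample, with KRT5 and SOX10 at 0. Of the 4 leukocyte markers, CD14 was at 1.89 to 3.1 FPKM. The other 3 were below 1 FPKM throughout, with CD3E at 0. Of the 4 smooth muscle markers 2 were, with sums of 22.8 to 31.4 FPKM in control and 23.3 to 34.5 FPKM in SUPT4H1 siRNA samples, nearly all of it SMTN. Of the 5 chondrocyte and osteoblast markers 3 were below 1 FPKM, with SP7 at 0, and the sums were 0.92 to 6.05 and 1.52 to 5.92 FPKM, mostly SOX9. ACAN, which was below the filter, differed between the lines. It was at 2.02 and 2.14 FPKM in control and 0.616 and 0.703 FPKM in SUPT4H1 siRNA cells of line 1, and at most 0.0483 FPKM in line 2.

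The family spanned more than 3 orders of magnitude in level, and decorin dominated it. In control cells the 10 members together gave 6793 and 6818 FPKM in line 1, or 2.36% and 2.34% of all FPKM, and 3451 and 3597 FPKM in line 2, or 1.18% and 1.19%. DCN made up 77.2% and 77.5% of that sum in line 1 and 63.6% and 63.3% in line 2, and was the highest of all gene rows in both control samples of line 1, where COL1A1 and COL1A2 had no successful estimate. The order DCN, LUM, BGN, PODN held in all 8 samples. PRELP was number 7 of the 10 in control cells of line 1, below FMOD and ECM2, and number 6 in line 2. After SUPT4H1 siRNA it was number 6 in line 1, above ECM2, and number 5 in line 2, above FMOD as well. Its share of the family's FPKM went from 0.319% and 0.298% to 0.618% and 0.56% in line 1, and from 0.588% and 0.594% to 1.55% and 1.52% in line 2. OGN and ASPN stood lowest, at 0.767 to 3.83 FPKM, and swapped ranks between the lines. The half-width of the deposited interval, which covers estimation error and not the spread between cultures, was 0.64% to 0.77% of the value for LUM, 4.31% to 4.96% for PRELP, 13.5% to 19.6% for OGN and 10.4% to 25.6% for ASPN.

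**Figure D1:**
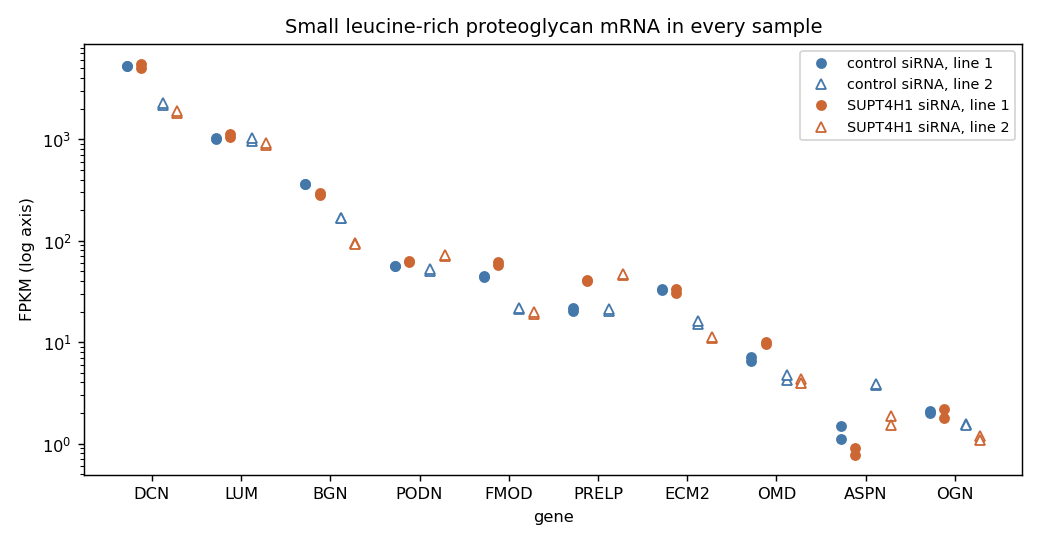
Level of each of the 10 members in FPKM on a log axis, 1 point per sample, for line 1 (filled circles) and line 2 (open triangles) under control siRNA (blue) and SUPT4H1 siRNA (orange). PRELP sits at 20.3 to 21.7 FPKM in all 4 control samples and at 40.3 to 46.6 FPKM in all 4 SUPT4H1 siRNA samples, while most other members differ more between the lines than between the siRNAs.

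Of the 10 members, 2 rose after SUPT4H1 siRNA with the line as block, PRELP and PODN. Another 3 fell, BGN, ASPN and ECM2, and 5 did not pass the threshold of 0.05 on the adjusted p. Among all genes tested 26.8% were called higher and 15.2% lower, 42.1% in either direction. The members' counts were not far from these shares. The members' counts of rises, here and below, include PRELP, which was chosen for its rise, so its call was known in advance. The median log2 change was -0.08 over the 10 members, with 4 above and 6 below 0, and 0.03 over all genes tested. PRELP had the family's highest log2 change, ranked 8 among the 11442 genes, and the next member, PODN, ranked 540. In bulk RNA, fewer cells of a type and less RNA per cell cannot be told apart. Grouping 4 against 4 without a line term, which is the grouping of the series design, left 2 members called higher, where 3.56% of all genes were, and 0 called lower, where 1.77% were (5.32% in either direction). Scaling each sample by median ratios changed the calls over all genes from 3071 higher and 1743 lower to 2319 and 2310, and turned the direction of no member here.

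PRELP, which binds heparan sulfate and collagen and anchors basement membranes to connective tissue, measured 21.7 and 20.3 FPKM in control cells of line 1 and 20.3 and 21.4 FPKM in control cells of line 2. After SUPT4H1 siRNA it measured 40.8 and 40.3 FPKM in line 1 and 45.9 and 46.6 FPKM in line 2. Every SUPT4H1 siRNA sample was above every control sample, and control cells of both lines started at one level. The log2 change on the log2(FPKM + 1) scale was 1.02 (SE 0.04, 95% interval 0.92 to 1.11, adjusted p = 1.03e-06), or 6.12e-04 without the block. The gene spans chr1:203444883-203460479 in hg19.

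None of the other class II members passed over both lines together, although FMOD and OMD rose with PRELP in line 1. LUM, a keratan sulfate proteoglycan that organizes collagen fibrils, measured 1024 and 1014 FPKM in control and 1042 and 1118 FPKM in SUPT4H1 siRNA cells of line 1, and 970.5 and 1033 against 878.5 and 915.9 FPKM in line 2. The SUPT4H1 siRNA samples were the higher pair in line 1 and the lower pair in line 2, and the log2 change was -0.04 (95% interval -0.16 to 0.09, adjusted p = 0.612). FMOD, which guides early collagen fibril assembly, measured 44.3 and 43.8 FPKM against 57.2 and 61.5 FPKM in line 1, and 21.1 and 21.5 FPKM against 19.1 and 19.9 FPKM in line 2. Here too the direction turned between the lines without overlap in either, and the combined log2 change was 0.15 (95% interval -0.06 to 0.36, adjusted p = 0.231). OMD, a keratan sulfate proteoglycan of mineralized tissue, measured 7.07 and 6.47 FPKM against 9.68 and 10.0 FPKM in line 1, and 4.22 and 4.69 FPKM against 4.37 and 3.91 FPKM in line 2. It separated the siRNAs in line 1 and overlapped in line 2, with a log2 change of 0.20 (95% interval -0.04 to 0.43, adjusted p = 0.154).

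Among class I genes, BGN and ASPN fell and DCN did not pass. BGN, which carries chondroitin or dermatan sulfate chains and can signal through Toll-like receptors once released, measured 359.7 and 359.5 FPKM in control and 280.5 and 291.6 FPKM in SUPT4H1 siRNA cells of line 1. In line 2 it measured 169 and 167.2 FPKM against 95.8 and 91.8 FPKM. All SUPT4H1 siRNA samples were below the controls of their own line, but those of line 1 were above the controls of line 2. Its log2 change was -0.58 (SE 0.09, adjusted p = 8.11e-04), and without the block, where the SE was 0.49, the adjusted p was 0.589.

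ASPN, a TGF-beta-binding relative of decorin with a stretch of aspartates, measured 1.48 and 1.11 FPKM against 0.893 and 0.767 FPKM in line 1, and 3.78 and 3.83 FPKM against 1.87 and 1.52 FPKM in line 2. It was lower in both lines without overlap, at levels where the deposited intervals are wide. Its log2 change on the log2(FPKM + 1) scale was -0.58 (SE 0.11, adjusted p = 0.00232, or 0.354 without the block). With 0.1 added in place of 1, the change of ASPN was -0.85 and that of BGN -0.59. DCN, the main dermatan sulfate proteoglycan of connective tissue, measured 5244 and 5281 FPKM against 5082 and 5567 FPKM in line 1, and 2195 and 2276 FPKM against 1830 and 1897 FPKM in line 2. Its siRNA groups overlapped in line 1 and not in line 2, and the log2 change was -0.12 (95% interval -0.27 to 0.02, adjusted p = 0.144). ECM2, a matrix protein with decorin-like repeats, measured 32.8 and 33.1 FPKM against 30.6 and 33.5 FPKM in line 1, and 15 and 16.1 FPKM against 10.9 and 11.1 FPKM in line 2. Only in line 2 did its groups separate, and its log2 change of -0.25 (SE 0.08, adjusted p = 0.028) was lost without the block (adjusted p = 0.832) and on leaving out any of the 4 line 2 samples (adjusted p = 0.0766 to 0.0813).

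OGN, the class III member, measured 1.99 and 2.08 FPKM against 1.77 and 2.21 FPKM in line 1, and 1.56 and 1.52 FPKM against 1.17 and 1.08 FPKM in line 2. Its groups overlapped in line 1, and the log2 change of -0.14 did not pass (95% interval -0.29 to 0, adjusted p = 0.104). Without the second SUPT4H1 siRNA sample of line 1, both OGN (adjusted p = 0.0112) and DCN (adjusted p = 0.0356) passed as lower. PODN, a class V protein first described in podocytes, measured 56.1 and 56.6 FPKM against 61.4 and 63.1 FPKM in line 1, and 50.3 and 52.2 FPKM against 70.4 and 71.9 FPKM in line 2. Every SUPT4H1 siRNA sample was above every control sample, as for PRELP, with a log2 change of 0.30 (SE 0.06, adjusted p = 0.00303, or 0.0452 without the block).

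**Figure D2:**
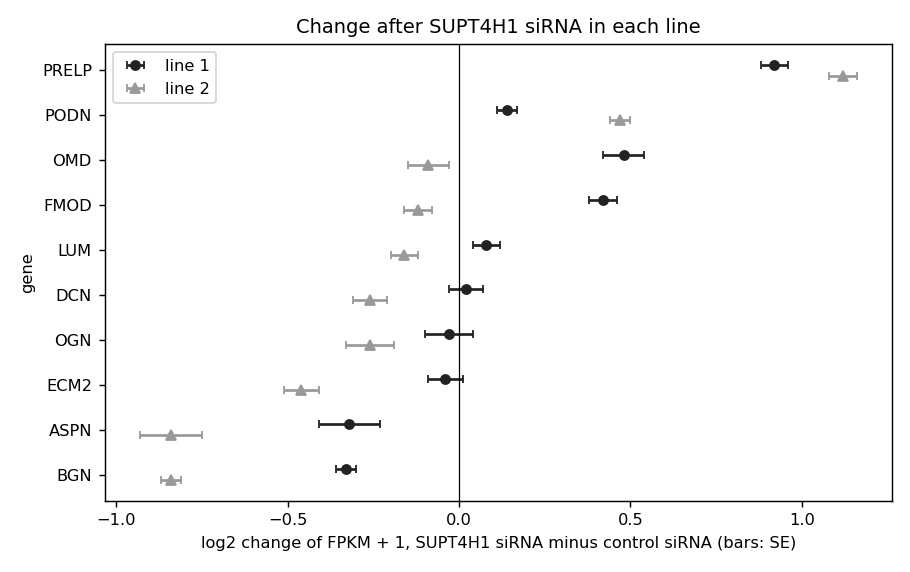
Log2 change of each member after SUPT4H1 siRNA in line 1 and line 2, on the log2(FPKM + 1) scale, with the SE of the limma fit as error bars. PRELP lies at 0.92 and 1.12 and PODN at 0.14 and 0.47, BGN and ASPN lie below 0 in both lines, and FMOD and OMD lie above 0 in line 1 only.

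The size of the response depended on the line for most of the family. Within line 1, PRELP, OMD, FMOD and PODN rose and BGN and ASPN fell, which makes 4 of 10 higher and 2 lower, where 19% and 11.7% of all genes were. Within line 2, PRELP and PODN rose and BGN, ASPN, ECM2, DCN, OGN, LUM and FMOD fell, which makes 2 higher and 7 lower, where 26.9% and 15.9% of all genes were (42.9% in either direction). PRELP and PODN were thus called higher in both lines, as were 13.7% of all genes, and BGN and ASPN lower in both, as were 7.87%. The difference between the lines passed for 9 of the 10 members, all but OGN, and for 9.88% of all genes. For 7 of these 9 the change in line 2 was the more negative one, and for PRELP and PODN it was the more positive one. Over all genes tested 4.49% passed in the former direction and 5.39% in the latter.

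BGN was at 79.6% of its control level in line 1 and at 55.8% in line 2, log2 changes of -0.33 (adjusted p = 4.9e-05) and -0.84 (adjusted p = 1.14e-07) that differed by -0.51 (adjusted p = 1.41e-04). ASPN was at 64% and 44.5%, log2 changes of -0.32 and -0.84 that differed by -0.51 (adjusted p = 0.032). With 0.1 added in place of 1, its log2 changes were -0.58 and -1.13, their difference no longer passed (-0.55, adjusted p = 0.132), and those of BGN were -0.33 and -0.84. FMOD was at 134.7% in line 1 (log2 change 0.42, adjusted p = 3.95e-05) and 91.5% in line 2 (-0.12, adjusted p = 0.0271), a difference of -0.54 (adjusted p = 3.53e-04). It was the member called in opposite directions in the lines, as were 0.804% of all genes, although its fall in line 2 was lost without either control sample (adjusted p = 0.0628 and 0.0982) or the first SUPT4H1 siRNA sample (0.166) of that line. The fall of LUM in line 2 was lost without the second control (adjusted p = 0.0882) or the first SUPT4H1 siRNA sample (0.112), and that of OGN without either control (0.0795 and 0.0544) or the second SUPT4H1 siRNA sample (0.0896). The fall of ASPN in line 1 was lost without the first control (adjusted p = 0.156) or the second SUPT4H1 siRNA sample (0.117). OMD was at 145.3% and 92.9%, with a difference of -0.57 (adjusted p = 0.00327).

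ECM2 was at 97.4% in line 1 and 70.8% in line 2, with a difference of -0.42 (adjusted p = 0.00306), and PODN at 110.5% and 138.9%, with a difference of 0.32 (adjusted p = 0.00129). The differences of these and of BGN, FMOD and OMD passed on leaving out any 1 of the 8 samples. PRELP stood at 193.1% and 222.2% of control, a difference of 0.20 (adjusted p = 0.0464, or 0.0505 with 0.1 added in place of 1). DCN stood at 101.2% and 83.3%, a difference of -0.28 (adjusted p = 0.028), and LUM at 106% and 89.6%, a difference of -0.24 (adjusted p = 0.038). For PRELP, DCN, LUM and ASPN the difference was lost in 6 of the 8 fits that left out 1 sample, with adjusted p up to 0.155, 0.112, 0.134 and 0.0986. The fits that held it left out the second control of either line for PRELP, the first SUPT4H1 siRNA sample of line 1 or the first control of line 2 for DCN and LUM, and the first control of line 1 or the first SUPT4H1 siRNA sample of line 2 for ASPN. OGN, at 97.6% and 73.1%, gave a difference of -0.23 (95% interval -0.46 to 0, adjusted p = 0.209).

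**Figure D3:**
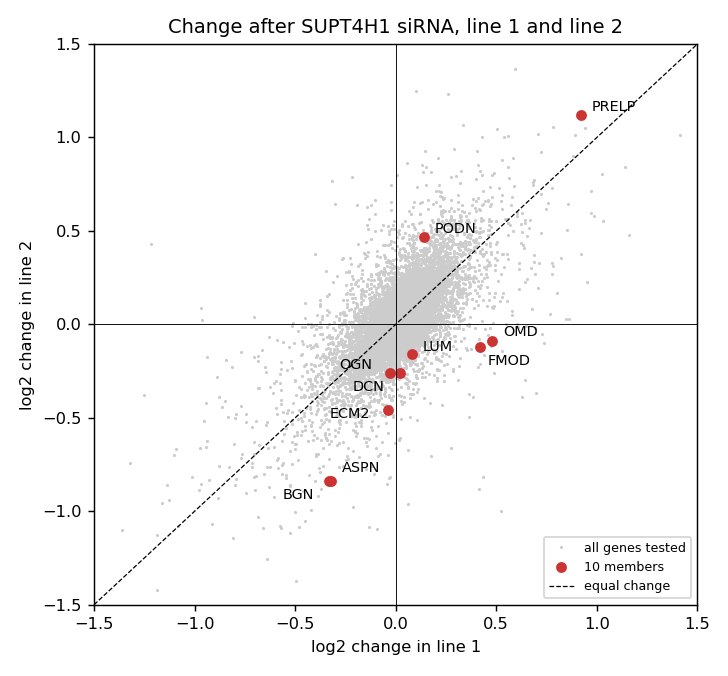
Log2 change after SUPT4H1 siRNA in line 1 (horizontal) and line 2 (vertical) for all 11442 genes tested (grey) and the 10 members (red), with a dashed line of equal change. PRELP and PODN lie above the dashed line and the other 8 members below it, BGN and ASPN overlap on this log2(FPKM + 1) scale, which understates the change of ASPN, and 15 genes lie outside the axes at 1.5.

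Without SUPT4H1 siRNA the lines already differed in most members. In control cells 7 of the 10 were lower in line 2 and 1 was higher, where 33.7% and 24.2% of all genes were. DCN was 2.35 times, BGN 2.14 times, ECM2 2.12 times and FMOD 2.07 times as high in line 1 as in line 2, and on the log2(FPKM + 1) scale the differences of line 2 from line 1 were -1.23, -1.09, -1.04 and -1.01. OMD, OGN and PODN were lower in line 2 by smaller amounts (-0.51, -0.26 and -0.13). The mean FPKM of ASPN was 2.93 times as high in line 2. On the log2(FPKM + 1) scale, which understates the difference of so low a gene, it was higher by 1.07 (adjusted p = 4.78e-06), and by 1.5 with 0.1 added in place of 1. LUM (-0.03, 95% interval -0.12 to 0.07) and PRELP (-0.01, 95% interval -0.10 to 0.07) did not pass (adjusted p = 0.642 and 0.803). These differences share their control samples with the changes within each line.

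Set against each other member in the same sample, PRELP was higher after SUPT4H1 siRNA in both lines for all 9 ratios. On the log2(FPKM + 1) scale, where the added 1 matters most for ASPN and OGN, the ratio was higher by 1.60 against BGN, 1.60 against ASPN, 1.27 against ECM2, 1.16 against OGN, 1.14 against DCN, 1.05 against LUM, 0.87 against FMOD, 0.82 against OMD and 0.71 against PODN. With 0.1 added in place of 1, the values for ASPN and OGN were 1.90 and 1.28. The ratio to LUM, for example, was -5.50 and -5.57 in control and -4.64 and -4.76 in SUPT4H1 siRNA cells of line 1, and -5.51 and -5.53 against -4.23 and -4.27 in line 2. Against LUM, BGN, OGN, ASPN and PODN the exact 2-sided permutation test over the 70 arrangements gave p = 0.0286, the smallest it can give, and 0.0515 adjusted over the 9 ratios. For DCN, ECM2, FMOD and OMD it gave p of 0.143 to 0.229. Arranged within lines, 36 arrangements cannot go below 0.0556, the exact permutation p of all 9 ratios. Because PRELP was chosen for its rise, these ratios describe its size relative to the family and are no independent support for it.

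**Figure D4:**
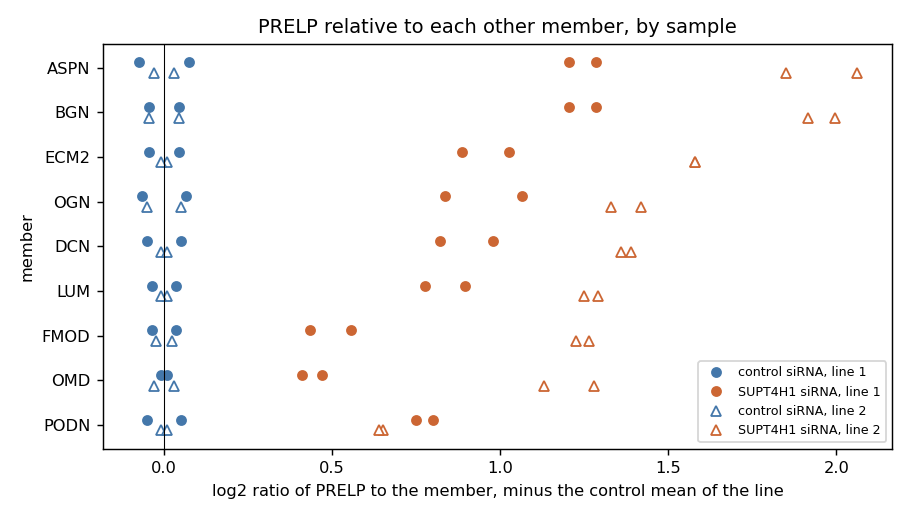
Log2 ratio of PRELP to each other member in every sample, on the log2(FPKM + 1) scale, minus the mean of the control samples of the same line, with 1 point per sample. In each line the SUPT4H1 siRNA points lie to the right of the control points for all 9 members.

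Most members lie in 3 clusters, and how far neighbours shared a direction differed between the clusters and the lines. On chromosome 1 (hg19 throughout), FMOD (203309749 to 203320557) and PRELP lie 124.3 kb apart. Both rose in line 1 (log2 changes of 0.42 and 0.92), whereas in line 2 FMOD fell (-0.12) and PRELP rose (1.12). OPTC, 2.8 kb beyond PRELP, was at most 0.022 FPKM. On chromosome 9, OGN (95146249 to 95166937), OMD (95176527 to 95186836), ASPN (95218489 to 95244844) and ECM2 (95255829 to 95298374) lie side by side. In line 1 OMD rose, ASPN fell, and OGN and ECM2 did not pass. In line 2 ASPN, ECM2 and OGN all fell (-0.84, -0.46 and -0.26) and OMD did not pass (-0.09). On chromosome 12, LUM (91497232 to 91505542) and DCN (91539035 to 91576806) lie 33.5 kb apart, next to EPYC and KERA at 0.034 FPKM or less. Neither LUM nor DCN passed in line 1, and both fell in line 2. BGN (152760347 to 152775004) is on chromosome X and PODN (53527724 to 53551174) is on chromosome 1, far from FMOD and PRELP.

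All 4 chromosome 9 members lie within the interval of CENPP, which measured 0.357 to 0.731 FPKM. The start of BGN lies within the interval of HAUS7, a gene of the mitotic spindle. The level of HAUS7 went from 11.5 ± 3.04 to 9.5 ± 4.28 FPKM (SD, n = 4) and fell by 0.32 on the log2 scale (adjusted p = 0.0152, or 0.656 without the block). HAUS7 also differed between the lines in the direction of BGN, by -0.45 (adjusted p = 0.00574). Whether reads were counted by strand is not given in the sources used here, so reads of overlapping genes cannot be told apart, which bears most on ASPN and OGN, whose levels are low. Among other neighbours within 150 kb, BTG2, an antiproliferative gene 31 kb from FMOD, rose by 0.59 (adjusted p = 3.48e-04), and ATP2B4, a calcium pump 135.4 kb from PRELP, rose by 0.28 (adjusted p = 1.58e-04, or 0.481 without the block).

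**Figure D5:**
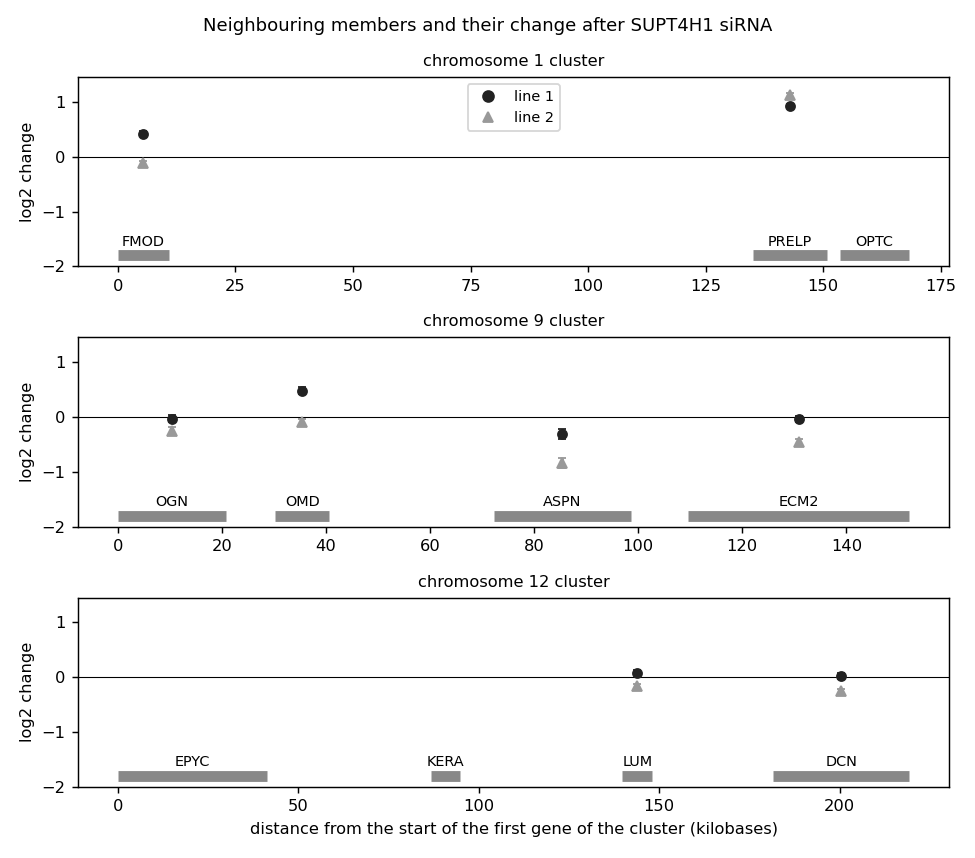
Log2 change after SUPT4H1 siRNA in line 1 (black circles) and line 2 (grey triangles), with SE, at the midpoint of each tested member in the 3 clusters, over gene bars drawn to scale in kilobases from the start of the first gene. PRELP lies near 1 in both lines while FMOD in the same cluster lies at 0.42 and -0.12, and OMD and ASPN in the chromosome 9 cluster lie on opposite sides of 0 in line 1. In line 2 all members of the chromosome 9 cluster lie below 0.

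Genes outside the 10 were taken from lists drawn up with earlier results of these data known. The counts per list, here and below, are therefore descriptions and no independent support. Of 8 further family genes, 2 were tested: PODNL1, the close relative of PODN, fell from 4.89 ± 0.22 to 2.81 ± 0.39 FPKM (SD, n = 4, log2 change -0.63, adjusted p = 4.22e-05, or 0.00645 without the block), opposite in direction to PODN, and TSKU did not pass. The other 6, CHAD, CHADL, KERA, EPYC, OPTC and NYX, were below the filter. Of 19 tested enzymes that build chondroitin and dermatan sulfate chains, 5 rose and 6 fell, where 26.8% and 15.2% of all genes did, and without the block 0 rose and 1 fell. CHPF, a chain polymerizing factor, rose by 0.46 (adjusted p = 2.69e-04), and XYLT1, which adds the first sugar to the core protein, fell by 0.24 (adjusted p = 0.00264). Of 8 listed enzymes of keratan sulfate chains only 4 were tested, as CHST1, CHST4, CHST6 and B3GNT7 were below the filter. Of the 4 tested, 3 rose and 1 fell, and without the block 1 rose and 0 fell. B3GNT2, which extends the chain, rose by 0.45 (adjusted p = 0.00256), CHST2, a sulfotransferase, rose by 0.27 (adjusted p = 0.00105), and B4GALT1, a galactosyltransferase, fell by 0.21 (adjusted p = 0.00159).

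Among the molecules that these proteoglycans bind, 6 of 8 tested collagen genes fell and 0 rose, where 15.2% and 26.8% of all genes did, with a median of -0.24. Without the block 2 of the 8 fell, where 1.77% of all genes did. COL12A1, a fibril-associated collagen, went from 320.1 ± 29.1 to 160.3 ± 7.33 FPKM (SD, n = 4, log2 change -0.99, adjusted p = 8.31e-07), and COL6A3 and COL5A1 fell by 0.47 and 0.44 (adjusted p = 1.39e-04 and 0.00229). COL1A1 and COL1A2, chains of the main fibrillar collagen, lacked a successful estimate in some samples and were not tested. Both were listed at 0 in every control sample. After SUPT4H1 siRNA, COL1A1 was listed at 3382 to 3996 FPKM. COL1A2 was at 0 in the first SUPT4H1 siRNA sample of line 1 and at 4573 to 4783 FPKM in the others. The missing estimates thus went with the siRNA, and these values give no change. Of 5 tested growth factors 3 fell, and 2 without the block. The falls were CTGF by 0.82, WISP1 by 0.62 and TGFB1 by 0.39 (adjusted p = 2.19e-05, 4.68e-04 and 1.7e-05). Of 11 tested receptors 3 rose and 4 fell, against 0 and 1 without the block. MET, a decorin receptor, rose by 0.34 (adjusted p = 2.74e-04), whereas the TGF-beta receptors TGFBR1 and TGFBR3 fell by 0.55 and 0.50 (adjusted p = 1.28e-04 and 2.06e-05) and TGFBR2 rose by 0.24 (adjusted p = 2.1e-04). Of 6 tested proteases that cut family members 3 rose and 1 fell, against 0 and 0 without the block. MMP3 went from 5.24 ± 3.71 to 10.3 ± 5.99 FPKM (SD, n = 4) and rose by 0.91 (adjusted p = 2.29e-06), and HTRA1 fell by 0.24 (adjusted p = 1.02e-04). Without the block, the CTGF, MMP3, HTRA1, MET, CHPF and XYLT1 changes did not pass (adjusted p = 0.374, 0.414, 0.291, 0.285, 0.056 and 0.217), nor did those of CHST2, B4GALT1, COL5A1, TGFBR2 and TGFBR3 (0.428, 0.0734, 0.0902, 0.274 and 0.0649).

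Over the 8 samples, the genes outside the family whose log2(FPKM + 1) values ran closest to those of PRELP, among 119 genes with a log2 change of at least 0.5, were TM7SF2 (Pearson r = 0.99), PALMD (0.989), SDPR (0.987), GNG11 (0.987) and FAM43A (0.98). All 5 are genes chosen for a rise, so the samples' siRNA label is common to these values. SDPR, which encodes a caveolar coat protein, went from a mean of 2.7 to 9.33 FPKM, and GNG11, a G protein gamma subunit, from 40.8 to 82.5 FPKM.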

How the data were processed

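Polyadenylated RNA of 2 fibroblast lines was measured under 2 siRNAs in 8 samples. The authors deposited 1 table per sample of FPKM with interval bounds and a status, 27032 rows each. The genome build is hg19, per the submitters' processing notes. For the aligner, quantifier, annotation and use of strand, nothing is given in the sources used here. These values are not counts, so no count test was run. Short RNA rows (2185) were left out and rows of 1 symbol were summed (129 tested genes had several). Genes with a mean of at least 1 FPKM and status OK in every sample were tested (11442, with 12 more left out for status). The test was limma 3.58.1 (R 4.3.3) on log2(FPKM + 1), which understates changes of low genes, 2-sided, with a mean-variance trend, Benjamini-Hochberg adjustment over all genes tested, and siRNA plus line as terms. A fit of 4 group means gave the contrasts within and between lines. Ratios of PRELP to the other members used exact permutation. The fit was tested on simulated data. Tables used pandas 2.3.3 and numpy 2.4.6 in Python 3.11.15, and figures matplotlib 3.10.9. Samples of a line deviated together (correlations from siRNA means 0.883 to 0.9). As deviations from their group means, same-numbered replicates within a line correlated at 0.103 in line 1 and 0.052 in line 2. With 2 replicates per group, differently numbered ones give the same value with the sign turned. These correlations therefore cannot tell whether the numbers paired samples, and the main fit did not use the numbers. Alternatives covered the block, the pseudocount, the filter, scaling and leaving out each sample. The members and lists were chosen with earlier results of these data known. The text names all members, up to 3 called genes per list and direction, neighbours within 150 kb, and the 5 genes most correlated with PRELP.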

Additional observations from a re-analysis of the deposited data

Results flagged for a closer look

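The response to SUPT4H1 siRNA differed between the lines for 9 of the 10 members, by the interaction contrast of the limma fit of 4 group means. The same contrast passed for 9.88% of all genes tested, 5.39% with the more positive change in line 2 and 4.49% with the more negative one. The log2 change in line 2 minus that in line 1 was -0.57 for OMD, -0.54 for FMOD, -0.51 for BGN, -0.51 for ASPN, -0.42 for ECM2, -0.28 for DCN and -0.24 for LUM. It was 0.32 for PODN and 0.20 for PRELP. The differences of BGN, FMOD, OMD, PODN and ECM2 passed on leaving out any 1 of the 8 samples. Those of PRELP, DCN, LUM and ASPN were each lost in 6 of the 8 such fits (adjusted p up to 0.155, 0.112, 0.134 and 0.0986), and those of PRELP and ASPN also with a pseudocount of 0.1. The part of baseline level in these differences was not tested, although DCN, BGN, ECM2 and FMOD were about 2 times as high in control cells of line 1 and ASPN was higher in line 2.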

How the results depend on the processing

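Without a line block (no replicate block), the log2 changes of BGN (-0.58), ASPN (-0.58) and ECM2 (-0.25) kept their size and lost their call, because the difference between the lines then enters the spread. That fit called 407 genes higher and 202 lower, against 3071 and 1743, and 0 members lower. The block of line and replicate number together called 2590 genes higher and 1447 lower, and lost ECM2 (-0.25). ECM2 (-0.25) was also lost with no filter on low values. A filter of 5 FPKM left ASPN and OGN untested. With a pseudocount of 0.1, the differences between the lines of PRELP (0.20) and ASPN (-0.55) were lost. Scaling each sample moved the share of rises among called genes from 63.8% to 50.1% and the median log2 change of all genes from 0.031 to 0.001. It turned the direction of 3 uncalled values: the change of DCN in line 1 to -0.01, and the control differences of PRELP to 0.03 and LUM to 0.02. No member changed direction in the combined comparison under scaling. Leaving out each sample in turn (added after seeing the data for the contrasts within and between lines) gave these ranges. For the combined changes, DCN ranged from -0.18 to -0.09, LUM from -0.08 to 0, OGN from -0.21 to -0.11 and ECM2 from -0.32 to -0.19. In these fits 2 to 5 of the 10 members were called lower, where 1402 to 1652 of the 11442 genes tested were. Within line 1, DCN ranged from -0.05 to 0.08, OGN from -0.13 to 0.08, ASPN from -0.44 to -0.21 and ECM2 from -0.10 to 0.02. ASPN in line 1 was lost without the first control or the second SUPT4H1 siRNA sample of that line. Within line 2, LUM ranged from -0.20 to -0.11, FMOD from -0.15 to -0.09 and OGN from -0.29 to -0.23. The differences between the lines ranged from 0.15 to 0.24 for PRELP, -0.34 to -0.21 for DCN, -0.29 to -0.19 for LUM and -0.63 to -0.40 for ASPN. The control differences ranged from -0.06 to 0.03 for PRELP, -0.07 to 0.02 for LUM and -0.28 to -0.24 for OGN. Where not stated, the cause was not tested. Fragment numbers are not given, so the deposited intervals are the measure of depth, and they were widest for ASPN and OGN.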

Other observations

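Some neighbours of the members, and some genes of the fixed lists, have values not given above. SCP2, a sterol carrier protein 10.4 kb from PODN, rose by 0.12 (limma, adjusted p = 0.013), and MAGOH, an exon junction protein, fell by 0.16 (adjusted p = 0.0275). IPPK, an inositol phosphate kinase near ECM2, rose by 0.15 (adjusted p = 0.0099). None of these 3 passed without the block (adjusted p = 0.54, 0.378 and 0.136). SLC1A7, NOL8, FAM58A, CPT2 and C1orf123 did not pass. Of 3 tested chondroitin sulfate proteoglycans outside the family, SRGN (serglycin) and VCAN (versican) rose by 0.48 and 0.30 (adjusted p = 4.78e-04 and 1.25e-04) and CSPG4 fell by 0.34 (adjusted p = 1.01e-04). Without the block, of these 3 only SRGN passed (adjusted p = 0.0128, with 0.159 for VCAN and 0.506 for CSPG4).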
